A study of Mus musculus with 12 samples.

Results

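A set of 9 transcription factors that start or carry out neuron formation was followed across whole mouse embryos: Neurog1, Neurog2, Atoh1, Neurod1, Neurod4, Foxn4, Nhlh1, Nhlh2 and Insm1. They were chosen by name, with earlier results of these data known. All 9 were found among the 41079 genes of the deposited table and passed the filter on low counts. RNA of whole embryos was sequenced after timed matings of Mfsd12 heterozygous breeders, at 10.0 to 11.0 days after fertilization. The Mfsd12 protein sits in the membrane of lysosomes and melanosomes, where it is needed to bring cysteine in. The groups were 4 embryos labelled Mfsd12 knockout (KO), 4 labelled heterozygous (HET) and 4 labelled wild type (WT), each embryo a separate animal. No strain, sex or stage per embryo was given in the labels, they name no agent, and they do not say how the knockout was made. Embryo numbers follow the order of deposition within each genotype and link no embryos.

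Neurons form in the embryo when a neural progenitor raises a proneural factor of the basic helix-loop-helix (bHLH) family, which pairs with an E protein, binds DNA at E-boxes and raises Notch ligands that hold neighbouring cells back. Proneural factors such as Neurog1, Neurog2 and Atoh1 then switch on a further tier, among them the bHLH factors Neurod1, Neurod4, Nhlh1 and Nhlh2 and the zinc finger factor Insm1, as cells leave the cycle. Foxn4, a forkhead factor, acts in progenitors of the ventral spinal cord that give V2 interneurons and in the retina. At mid-gestation these genes mark the first waves of neurons in the spinal cord, hindbrain and cranial and dorsal root ganglia.

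The upstream sequences of 3 members are shown because Foxn4 and Nhlh2 had the lowest KO estimates of the set, and Nhlh1 is the near relative of Nhlh2 whose level tracked it. Each run is the 250 bases before the gene's start in RefSeq's GRCm38.p6 promoter table, 5′ to 3′ on the gene's own strand, with E-boxes (CANNTG, a motif that reads alike on both strands) in capitals. Foxn4 lies at chr5:114273762-114274011 on the minus strand, Nhlh1 at chr1:172057597-172057846 on the minus strand and Nhlh2 at chr3:102009895-102010144 on the plus strand.
Foxn4: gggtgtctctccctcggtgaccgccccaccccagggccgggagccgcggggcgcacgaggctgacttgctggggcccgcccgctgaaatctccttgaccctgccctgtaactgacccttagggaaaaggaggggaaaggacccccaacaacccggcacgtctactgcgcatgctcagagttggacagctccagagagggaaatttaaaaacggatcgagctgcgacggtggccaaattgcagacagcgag
Nhlh1: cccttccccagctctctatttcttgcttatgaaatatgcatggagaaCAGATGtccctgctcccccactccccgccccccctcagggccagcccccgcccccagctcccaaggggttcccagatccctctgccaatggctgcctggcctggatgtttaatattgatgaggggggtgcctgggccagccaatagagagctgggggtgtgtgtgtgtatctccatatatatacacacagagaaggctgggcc
Nhlh2: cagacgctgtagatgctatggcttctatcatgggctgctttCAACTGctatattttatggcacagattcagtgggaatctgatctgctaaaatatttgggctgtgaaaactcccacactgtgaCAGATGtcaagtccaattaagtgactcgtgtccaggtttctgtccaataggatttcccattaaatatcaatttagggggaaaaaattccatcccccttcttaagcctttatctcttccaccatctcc
CAGATG, the E-box form that neurogenin and NeuroD factors are known to prefer, was searched on both strands as one of the forms of CANNTG. It began 203 bases before the start of Nhlh1 and 127 bases before that of Nhlh2. Of the 9 members, 8 had an entry in the promoter table, and CAGATG stood in 2 of them, Nhlh1 and Nhlh2, beside 14.4% of all 32851 promoters in the table. Any CANNTG stood in 66.2% of all promoters. Among the members it was matched in Nhlh1, Nhlh2 and Neurod1. A match is a description of letters and not a binding site.

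On GRCm39 coordinates of the deposited table, Nhlh2 spans 101917425 to 101922808 on the plus strand of chromosome 3, and Neurog2 spans 127426382 to 127429285 on the plus strand of the same chromosome. Foxn4, with 12 merged exons, spans 114392225 to 114412486 on the minus strand of chromosome 5. Nhlh1 lies on chromosome 1 (171879859 to 171885163, minus), Neurod1 on chromosome 2 (79282981 to 79286980, minus), Insm1 on chromosome 2 (146064021 to 146066940, plus) and Atoh1 on chromosome 6 (64706109 to 64708229, plus). Neurod4 lies on chromosome 10 (130104021 to 130116123, minus) and Neurog1 on chromosome 13 (56398291 to 56399993, minus). Atoh1, Insm1 and Neurog1 have 1 exon each. None of the 9 shared exon bases with another gene of the table.

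Several libraries stood apart before any comparison. Counted reads lay between 53132928 and 67977877 per embryo. Mfsd12 averaged 2.97 ± 0.544 CPM in KO, 5.84 ± 2.56 CPM in HET and 11.9 ± 3.23 CPM in WT embryos (SD, n = 4 each), where CPM is the count scaled to a common library total. The library labelled HET 2 went against its label, with 2.58 CPM of Mfsd12, inside the KO range of 2.31 to 3.57 CPM. KO 3 had a summed 4873 CPM of the 10 yolk sac endoderm markers, and the KO median was 101 CPM. Xist was above 100 CPM in 1 of 4 KO, 4 of 4 HET and 1 of 4 WT embryos, so a high Xist level and the HET label largely coincided. A stage index, the mean z score of genes that rise later minus that of genes that fall later, with no member among them, was -2.55, -1.33, -0.0074 and 0.17 in KO 4, 2, 1 and 3. It ran between -0.13 and 0.67 in HET and between -0.45 and 1.76 in WT embryos. The first number in each title (4, 4.1b, 14, 15 or 18) has no stated meaning, and 4 and 18 occurred with every genotype.

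The members ranged over more than an order of magnitude in level. As CPM per kilobase of the file's gene length, medians over the 12 embryos were 7.38 for Nhlh2, 3.27 for Nhlh1, 3.14 for Neurog2, 2.67 for Neurod1 and 1.72 for Atoh1. They were 1.62 for Neurod4, 1.53 for Insm1, 0.977 for Neurog1 and 0.210 for Foxn4. Nhlh2 stood at the top and Foxn4 at the bottom of this order, and neighbours in it overlapped in their ranges over embryos. Counts behind a single value ran from 8 reads (Neurog1 in the library labelled HET 2) to 2649 reads (Nhlh2 in WT 3). Foxn4 rested on 14 to 28 reads in KO, 36 to 84 in HET and 28 to 60 in WT embryos, which limits the precision of its values. In RNA of whole embryos, fewer cells of a type and less RNA per cell cannot be told apart.

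**Figure D1:**
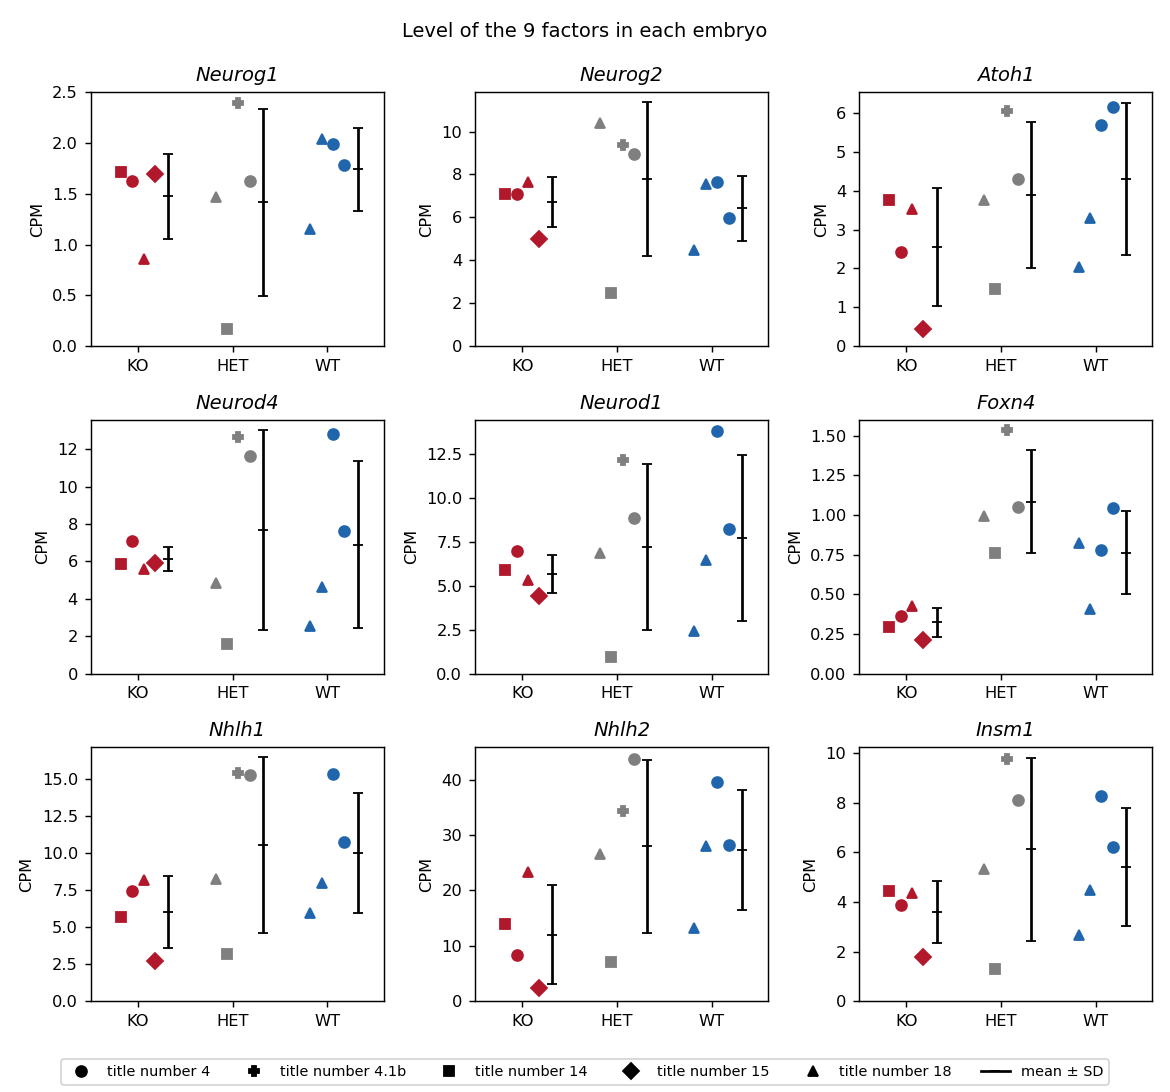
CPM (y axis) of each factor in every KO, HET and WT embryo (x axis, n = 4 each), with the mean ± SD beside the points and the marker giving the first number in the embryo's title. All 4 KO embryos lie below all 4 HET embryos for Foxn4, at 0.215 to 0.427 against 0.761 to 1.53 CPM, whereas for Neurog2 the KO points, at 4.996 to 7.65 CPM, lie inside the HET range only through the library labelled HET 2 at 2.47 CPM and below the other 3 HET embryos.

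The neurogenins overlapped between KO and WT embryos. Neurog2, a proneural factor of spinal cord, sensory ganglia and cortex, had 7.09, 7.11, 7.65 and 4.996 CPM in KO embryos 1 to 4. It had 10.4, 2.47, 9.36 and 8.96 CPM in HET embryos 1 to 4 and 4.48, 7.56, 7.67 and 5.98 CPM in WT embryos 1 to 4. The 3 groups overlapped, and the library labelled HET 2 was the lowest of all 12, while the other 3 HET embryos lay above every KO embryo. The log2 fold change of Neurog2 was 0.063 ± 0.36 SE in KO against WT (95% interval -0.71 to 0.83, edgeR's quasi-likelihood test with Benjamini-Hochberg adjustment, adjusted p = 0.965). That interval leaves room for a change in either direction. Neurog1, its close relative in the cranial sensory ganglia and the neural tube, had 0.855 to 1.72 CPM in KO, 0.169 to 2.39 CPM in HET and 1.15 to 2.04 CPM in WT embryos. Its log2 fold change in KO against WT was -0.24 ± 0.54 SE.

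Atoh1, the proneural factor of the dorsal spinal cord, the rhombic lip and inner ear hair cells, varied most within KO embryos among the 3 proneural bHLH genes. It had 3.76, 2.42, 3.54 and 0.444 CPM in KO embryos 1 to 4. It had 3.76, 1.48, 6.05 and 4.30 CPM in HET embryos 1 to 4 and 2.05, 3.29, 5.69 and 6.17 CPM in WT embryos 1 to 4. KO 4, with the lowest stage index, was also the lowest embryo for Atoh1, and the other 3 KO embryos lay inside the WT range. The log2 fold change in KO against WT was -0.76 ± 0.57 SE (edgeR adjusted p = 0.711).

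Neurod1 and Neurod4, bHLH factors that drive differentiation once a progenitor has committed, were held within a narrow band in KO embryos. Neurod4 had 5.62 to 7.10 CPM in KO embryos, against 1.61 to 12.6 CPM in HET and 2.53 to 12.8 CPM in WT embryos. Its SD was 0.66 CPM in KO, 5.32 CPM in HET and 4.45 CPM in WT embryos (n = 4 each). The difference in spread was not tested. Neurod1, which also acts in endocrine pancreas and sensory neurons, averaged 5.66 ± 1.09 CPM in KO, 7.20 ± 4.71 CPM in HET and 7.74 ± 4.73 CPM in WT embryos (SD, n = 4 each). In KO against WT the log2 fold changes were -0.17 ± 0.55 SE for Neurod4 and -0.45 ± 0.59 SE for Neurod1, with KO values inside the WT range for both genes.

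Insm1, a zinc finger factor of late progenitors, newborn neurons and endocrine cells, averaged 3.60 ± 1.24 CPM in KO, 6.12 ± 3.69 CPM in HET and 5.40 ± 2.39 CPM in WT embryos (SD, n = 4 each). Nhlh1, a bHLH factor switched on in newly formed neurons, averaged 6.03 ± 2.42 CPM in KO, 10.5 ± 5.95 CPM in HET and 10.03 ± 4.07 CPM in WT embryos (SD, n = 4 each). The KO means of both were the lowest, and the groups overlapped. Log2 fold changes in KO against WT were -0.58 ± 0.51 SE for Insm1 (edgeR adjusted p = 0.748) and -0.74 ± 0.47 SE for Nhlh1 (edgeR adjusted p = 0.677).

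Nhlh2, the relative of Nhlh1 known for its part in hypothalamic neurons, had the widest relative range of the members in KO embryos. It had 13.9, 8.44, 23.4 and 2.36 CPM in KO embryos 1 to 4. It had 26.6, 7.08, 34.4 and 43.8 CPM in HET embryos 1 to 4 and 13.3, 28.0, 39.7 and 28.2 CPM in WT embryos 1 to 4. KO 2 and KO 4 lay below all WT embryos, while KO 1 and KO 3 lay above WT 1. Nhlh2 averaged 12.03 ± 8.94 CPM in KO, 28.0 ± 15.6 CPM in HET and 27.3 ± 10.8 CPM in WT embryos (SD, n = 4 each). The log2 fold change was -1.18 ± 0.61 SE in KO against WT (95% interval -2.49 to 0.12, edgeR adjusted p = 0.619, exact two-sided permutation p = 0.0857). It was -1.22 ± 0.61 SE in KO against HET (edgeR adjusted p = 0.692, exact permutation p = 0.229). Without KO 3 the KO against WT value was -1.72, without KO 4 it was -0.84, and with the stage index as a covariate it was -0.88. Its sign stayed negative under every alternative run, and its lowest size, -0.31, came with the title number as a replicate block.

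Foxn4 had the lowest log2 fold change of the 9 factors in KO against HET, in the fit reported here and in the 25 alternatives run. In KO against WT it lay close to Nhlh2, which was the lower of the pair in 7 of 25 alternatives. These were limma voom, Xist as a covariate, the fits without KO 1, KO 3, WT 1 or WT 4, and the fit without the libraries labelled HET 2 and WT 1. The widest gap came without KO 3, at -1.37 for Foxn4 and -1.72 for Nhlh2. It had 0.292, 0.365, 0.427 and 0.215 CPM in KO embryos 1 to 4. It had 0.992, 0.761, 1.53 and 1.05 CPM in HET embryos 1 to 4 and 0.826, 0.406, 0.779 and 1.04 CPM in WT embryos 1 to 4. All KO embryos lay below all HET embryos, and in 3 of 4 KO embryos the level was below every WT embryo, while KO 3 lay just above WT 2. Foxn4 averaged 0.325 ± 0.0919 CPM in KO, 1.08 ± 0.325 CPM in HET and 0.763 ± 0.265 CPM in WT embryos (SD, n = 4 each).

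The log2 fold change of Foxn4 was -1.73 ± 0.40 SE in KO against HET, a 3.32-fold lower level (95% interval -2.59 to -0.88). The edgeR p was 0.000731 (adjusted p = 0.601), and the exact two-sided permutation p was 0.0286, the smallest that 4 embryos against 4 can give. In KO against WT it was -1.23 ± 0.39 SE, 2.34-fold lower (edgeR p = 0.00815, adjusted p = 0.537, exact permutation p = 0.0571). These comparisons share the KO embryos. Against the mean of HET and WT together it was -1.48 ± 0.36 SE (edgeR p = 0.00117, adjusted p = 0.211, exact permutation p = 0.00404). Foxn4 was therefore past an unadjusted threshold of 0.05 and short of the adjusted one. With the title number as a replicate block, its unadjusted edgeR p in KO against WT was 0.0526 and no member passed 0.05, while in KO against HET it was 0.00783. With DESeq2 in place of edgeR its adjusted p was 0.0279 in KO against HET and 0.0129 against the mean of both, where DESeq2 called 0.356% and 1.30% of all genes. The library labelled HET 2 carried 0.761 CPM, so KO and HET stayed apart with it as with the other 3 HET embryos, and without it the KO against HET value was -1.87. Without KO 3 the KO against HET value was -1.88, with the stage index as a covariate it was -1.81, and with Xist as a covariate it was -2.22.

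Embryos that share the title number 4 or 18 allow a look within a number, with 1 KO embryo in each and no test. Foxn4 differed by -1.23 on the log2 CPM scale between KO 2 and the 2 WT embryos of number 4 and by -0.42 between KO 3 and the 2 WT embryos of number 18. Against the single HET embryo of the number it differed by -1.45 (number 4) and -1.15 (number 18). Nhlh2 differed from WT by -1.98 within number 4 and by 0.28 within number 18, so its direction was not shared. Neurod4 likewise was -0.48 within number 4 and 0.71 within number 18, and Atoh1 -1.28 and 0.44. In a fit with the title number as a replicate block, the KO against WT values were -0.91 for Foxn4 and -0.31 for Nhlh2. The median of the 9 factors was 0.024. KO 4 and HET 3 share their title number with no other embryo, so they add nothing to the genotype estimates of that fit. Number 14 holds only KO 1 and the library labelled HET 2, the lowest HET embryo for 9 of 9 members. KO 1 lay above it for every member except Foxn4, for example at 5.92 against 0.951 CPM for Neurod1. Foxn4 was at 0.292 CPM in KO 1 and 0.761 CPM in the library labelled HET 2.

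**Figure D2:**
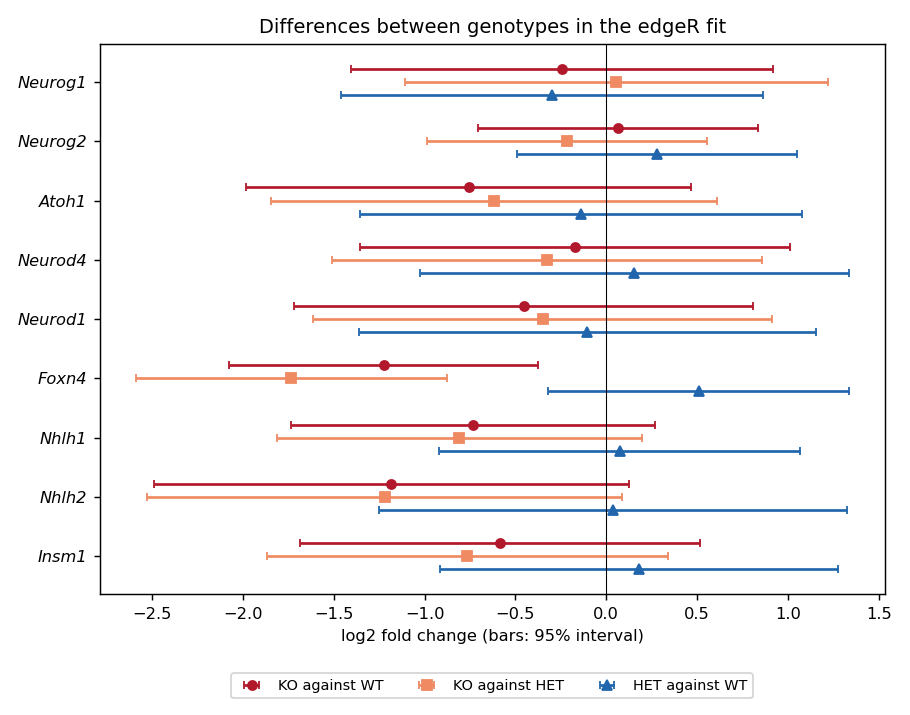
Log2 fold change (x axis) of each factor (rows) in KO against WT, KO against HET and HET against WT, with 95% intervals from the edgeR fit to all 12 embryos. The intervals of Foxn4 in both KO comparisons, from -2.59 to -0.88 against HET and from -2.08 to -0.37 against WT, lie left of 0, and the intervals of the other factors cross 0.

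Counted together, 0 of 9 members passed the adjusted threshold of 0.05 in KO against WT with edgeR, where 0% of all 20771 genes tested passed. At an unadjusted p under 0.05, 1 member (Foxn4) was lower, against 4.08% of all genes. With DESeq2, 0 members passed the adjusted threshold in this comparison, against 0.587% of all genes, and 0 passed with limma voom. The unadjusted count depended on the tool. With limma voom 4 members, Atoh1, Foxn4, Nhlh1 and Nhlh2, were lower at an unadjusted p under 0.05, against 5.1% of all genes. No member had KO embryos all below the WT embryos, which 1.82% of all genes had. The log2 fold change was negative for 8 of 9 members, beside 48.7% of all genes, and the median was -0.58 for the members and 0.011 for all genes. The members were chosen with earlier results known and moved together across embryos, so such counts are descriptions and not separate observations. In KO against HET, 0 of 9 passed (0% of all genes), 1 was lower at an unadjusted p under 0.05 (3.79% of all genes), and 8 of 9 were negative (50.1% of all genes), with a median of -0.62 beside -0.00055. With limma voom 4 members, Foxn4, Nhlh1, Nhlh2 and Insm1, were lower than in HET at an unadjusted p under 0.05 (7.06% of all genes). Foxn4 was the 1 member whose KO and HET embryos did not overlap, and 1.93% of all genes were lower in KO without overlap. Without the library labelled HET 2 the median of the members was -0.89. Neurog2, Foxn4, Nhlh1, Nhlh2 and Insm1 were then lower in KO than HET at an unadjusted edgeR p under 0.05. So were 3.96% of all 21263 genes tested there. The library labelled HET 2 was the lowest HET embryo for 9 of 9 members, so leaving it out lowers these values by itself.

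Between HET and WT embryos the estimates lay closer to 0. In HET against WT, 0 of 9 members passed the adjusted threshold (0% of all genes), and 0 passed at an unadjusted p under 0.05 (1.01% of all genes). Log2 fold changes ran from -0.30 for Neurog1 to 0.51 for Foxn4, with a median of 0.073 beside -0.0094 for all genes, and 3 of 9 were negative, beside 51.6% of all genes. Without the library labelled HET 2, the lowest HET embryo for every member, the median was 0.37 and 0 of 9 were negative. Its removal alone raises the HET values. Neurog2 was then higher in HET at an unadjusted p under 0.05 (0.503% of all genes passed in either direction). With Xist as a covariate Foxn4 was higher in HET by that threshold (0.380% of all genes). For KO against the mean of HET and WT, 0 of 9 passed with edgeR (0.00481% of all genes). At an unadjusted p under 0.05, 2 were lower, Foxn4 and Nhlh2 (4.87% of all genes), and 9 of 9 were negative (49.2% of all genes), with a median of -0.68. With limma voom 4 were lower by that threshold in this comparison, Foxn4, Nhlh1, Nhlh2 and Insm1 (6.97% of all genes). The exact permutation p of Nhlh2 was 0.0525 there, and its edgeR p was not under 0.05 in 15 of 24 alternatives, among them library totals, no count filter, the replicate block, Xist, the stage index, the progenitor scaling and the fits without KO 1, 2 or 4. That of Foxn4 was under 0.05 in all 24.

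Within each genotype the same embryo was low for most members. The library labelled HET 2 was the lowest HET embryo for 9 of 9 members, WT 1 the lowest WT embryo for 8 of 9 and KO 4 the lowest KO embryo for 7 of 9. HET 3 was the highest HET embryo for 7 members and WT 3 the highest WT embryo for 6. Neurod1 shows the size of this spread, with 0.951 CPM in the library labelled HET 2 and 12.2 CPM in HET 3. The libraries labelled HET 2 and WT 1 had the lowest scaling factors, 0.883 and 0.916. Their stage indices, 0.67 and 0.93, were not low. Without both, Neurod1, Foxn4, Nhlh1, Nhlh2 and Insm1 were lower in KO than WT at an unadjusted edgeR p under 0.05. So were 3.28% of all 21086 genes tested, and the median of the members was -0.82. Leaving out low WT and HET embryos while keeping KO 4 lowers the KO estimates by itself, so these values are no further support.

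**Figure D3:**
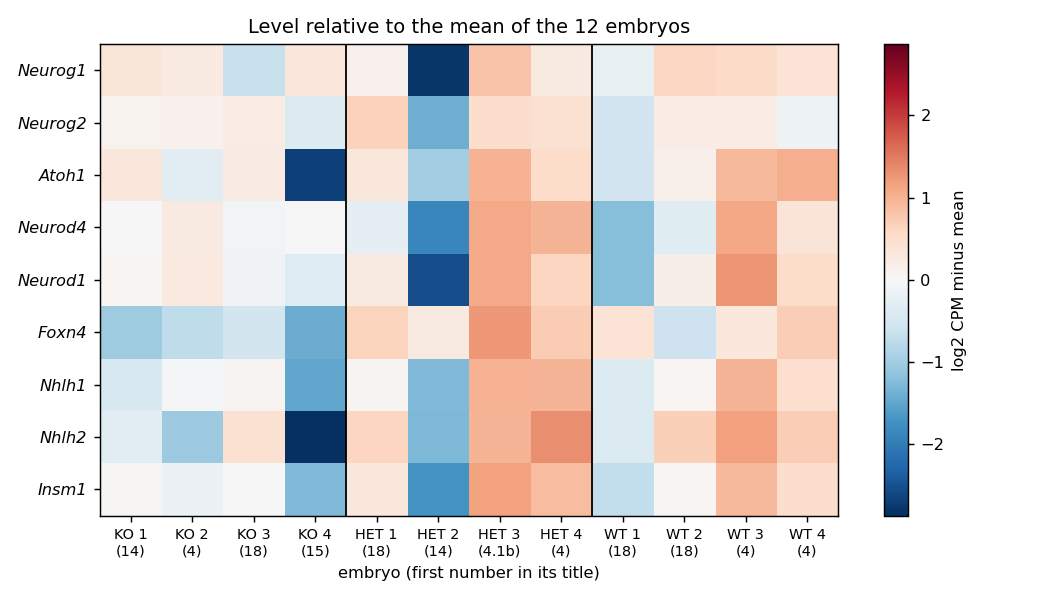
Log2 CPM minus the gene's mean over the 12 embryos (colour) for each factor (rows) in each embryo (columns, with the first number of the title below). The columns of KO 4, HET 2 and WT 1 are mostly blue, lowest of their group in 7, 9 and 8 of 9 factors, and the Foxn4 row is blue in all 4 KO embryos.

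The levels of most members moved together across embryos. Over the 36 pairs of members, Pearson's r of log2 CPM over the 12 embryos ran from -0.013 to 0.96 with a median of 0.71, and with genotype means removed from 0.25 to 0.97 with a median of 0.79. Nhlh1 and Insm1 had an r of 0.96, Neurod1 and Neurod4 0.94, Atoh1 and Nhlh2 0.93 and Nhlh1 and Nhlh2 0.91. Foxn4 had an r from -0.013 with Neurog1, 0.17 with Neurog2 and 0.19 with Neurod1 and Neurod4 to 0.51 with Insm1, 0.62 with Atoh1, 0.63 with Nhlh1 and 0.66 with Nhlh2. With genotype means removed its values ran from 0.25 to 0.64. All points share library scaling, and the embryos differ in stage and title number, so these values are descriptions.

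Levels were also set against Neurog2, a member of similar level in KO and WT embryos. Per length, Nhlh2 stood at 0.326 to 2.11 times Neurog2 in KO, 1.76 to 3.37 times in HET and 2.04 to 3.57 times in WT embryos. The KO range overlapped the others through KO 3. Foxn4 stood at 0.0263 to 0.0356 times Neurog2 in KO, 0.0607 to 0.196 times in HET and 0.0342 to 0.118 times in WT embryos. The HET range did not overlap the KO range, and the lowest WT embryo fell inside it.

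Outside the 9, genes among those most like their mean z score over the 12 embryos, among 15659 genes averaging at least 1 CPM, were Pou4f1 (r = 0.96), Tbc1d9 (0.96), Map1a (0.96), Ebf2 (0.95), Madd (0.95), 2510009E07Rik (0.94), Frmd4a (0.94), Gm10860 (0.93) and Syt11 (0.93). Pou4f1 is a homeodomain factor of sensory neurons and Ebf2 a helix-loop-helix factor of newborn neurons. Nhlh2 was most like Lzts1 (r = 0.99) and Mir9-2hg (0.98), and Neurog2 was most like Lonrf2 (0.98) and Ranbp9 (0.96). Pou4f1 (0.96) was among the closest to Nhlh1. Insm1 was most like Pou4f1 (0.97) and Tbc1d9 (0.95), and Atoh1 like Ebf3 (0.96) and 5930403L14Rik (0.96). Neurod1 was most like Wdr37 and Usp49 (0.97 each), Neurod4 like Arel1 (0.97) and Kcnb2 (0.96), and Neurog1 like Dcaf10 (0.96) and Tada2b (0.95). For Foxn4 the closest were Bbs9 (0.92) and Zkscan5 (0.91).

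The steps around the 9 factors were read from lists of known genes, none of which held a gene past the adjusted edgeR threshold in KO against WT. Genes of neural progenitors had negative log2 fold changes in 7 of 15 cases with a median of 0.075, and in KO against HET in 12 of 15 with a median of -0.20. Nes, an intermediate filament gene of progenitors, averaged 315 ± 93.9 CPM in KO, 524 ± 204 CPM in HET and 480 ± 86.3 CPM in WT embryos (SD, n = 4 each), with a log2 fold change of -0.61 in KO against WT and -0.73 in KO against HET. Lhx2, a homeodomain factor of forebrain and eye progenitors, averaged 12.4 ± 5.81 CPM in KO and 22.3 ± 4.81 CPM in WT embryos (-0.84). Nkx6-1, a homeodomain factor of the ventral neural tube, averaged 1.79 ± 0.770 CPM in KO and 0.968 ± 0.337 CPM in WT embryos (0.89). Notch ligands and receptors were negative in 2 of 9 in KO against WT with a median of 0.19. Jag1, a Notch ligand, averaged 55.2 CPM in KO and 34.3 CPM in WT embryos (log2 fold change 0.69). Notch modulators were negative in 4 of 14 with a median of 0.12. Among them the glycosyltransferase gene Mfng averaged 18.04 ± 2.92 CPM in KO, 26.3 ± 2.50 CPM in HET and 24.7 ± 2.03 CPM in WT embryos (SD, n = 4 each), with no overlap between KO and either group. Of all genes, 1.82% were lower in KO than WT without overlap and 1.93% lower in KO than HET. Notch targets were negative in 6 of 6 with a median of -0.22, and E proteins with Id factors in 2 of 7 with a median of 0.071.

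Among other neural bHLH genes, 7 of 11 tested were negative with a median of -0.23, and 2 of the 13 listed (Neurod2 and Ptf1a) had too few counts to test. Hes6, a bHLH gene that promotes neuron differentiation, averaged 22.7 ± 6.48 CPM in KO, 33.9 ± 7.53 CPM in HET and 34.7 ± 5.03 CPM in WT embryos (SD, n = 4 each; log2 fold change in KO against WT -0.62).

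Medians were lower for the lists of later steps. Neuron commitment genes were negative in 18 of 21 cases in KO against WT, with a median of -0.50. At an unadjusted edgeR p under 0.05, 4 of them were lower, beside 4.08% of all genes. Myt1, a zinc finger factor of newborn neurons, averaged 10.3 ± 7.31 CPM in KO and 24.8 ± 5.41 CPM in WT embryos (SD, n = 4 each), and Rnd2, a neurogenin target that acts in neuron migration, 39.3 ± 14.1 CPM in KO and 69.6 ± 20.4 CPM in WT embryos. Pan-neuronal genes were negative in 20 of 20, with a median of -0.98 and 13 lower by that threshold. Tubb3, the neuronal beta-tubulin gene, averaged 142 ± 80.4 CPM in KO and 327 ± 90.2 CPM in WT embryos (SD, n = 4 each). Kif1a, an axonal motor, averaged 26.7 ± 9.62 CPM in KO and 54.4 ± 10.3 CPM in WT embryos (SD, n = 4 each). KO and WT did not overlap for either gene, and 1.82% of all genes were lower in KO without overlap. The gap was narrow, from 239.6 CPM in KO 3 to 240.3 CPM in WT 4 for Tubb3 and from 40.3 to 41.4 CPM for Kif1a. For Tubb3, KO and HET overlapped, with 202.5 CPM in the library labelled HET 2. Summed pan-neuronal levels ran from 369 to 1129 CPM in KO, 971 to 1783 CPM in HET and 1052 to 1673 CPM in WT embryos, and were lowest in KO 4 and highest within KO in KO 3. No difference between lists was tested.

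Neuron classes downstream of single members were small lists. The dorsal dI1 interneuron genes, which follow Atoh1, were negative in 5 of 5 with a median of -0.80 in KO against WT. Of this list, Lhx2 is also counted among the progenitor genes and Pou4f1 among the sensory neuron genes. The summed level was 19.6 to 56.5 CPM in KO, 38.3 to 87.2 CPM in HET and 35.8 to 80.3 CPM in WT embryos, lowest in KO 4. The V2 interneuron genes, which follow Foxn4, were negative in 6 of 9 with a median of -0.29. In KO against HET, where Foxn4 differed most, they were negative in 5 of 9 with a median of -0.090. The dI1 genes were negative there in 5 of 5 with a median of -0.90. Tal1, a gene of the V2 list and also a blood gene, averaged 22.3 CPM in KO and 48.3 CPM in WT embryos, without overlap. Of all genes, 1.82% were lower in KO than WT without overlap. The 12 erythroid genes were negative in 12 of 12 with a median of -1.62. Their part in the Tal1 value was not tested. Sensory neuron genes were negative in 13 of 18 with a median of -0.29 and motor neuron genes in 7 of 9 with a median of -0.29. In KO against HET these were 10 of 18 with a median of -0.11 and 7 of 9 with a median of -0.32.

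Other cell types that use members of the set were checked by their markers. Of 10 pancreatic endocrine genes, 6 had enough counts to test and 4 were negative. Ins1 was at 0 in all 12 embryos, and the summed level was 4.29 to 9.11 CPM in KO, 8.96 to 18.2 CPM in HET and 10.1 to 13.5 CPM in WT embryos. Neural crest and glia genes had a median of -0.013 over 7 genes. The 10 yolk sac endoderm genes were positive in 10 of 10 with a median of 3.76, which rested on KO 3. The other 3 KO embryos had a summed 80.4 to 104 CPM of them, beside 61.4 to 168 CPM in WT embryos, and without KO 3 the median of the 9 genes tested was -0.11 with 6 negative. Genes that are higher earlier in development were positive in 17 of 17 tested with a median of 1.34, with a summed level of 149 to 853 CPM in KO, 91.7 to 307 CPM in HET and 81.5 to 276 CPM in WT embryos. Genes that are higher later were negative in 13 of 18 with a median of -0.39. Their summed level was 1193 to 1593 CPM in KO, 914 to 1689 CPM in HET and 1050 to 1380 CPM in WT embryos. The median sums were 1361 CPM in KO and 1147 CPM in WT embryos, so the sum, unlike the median fold change, was not lower in KO.

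**Figure D4:**
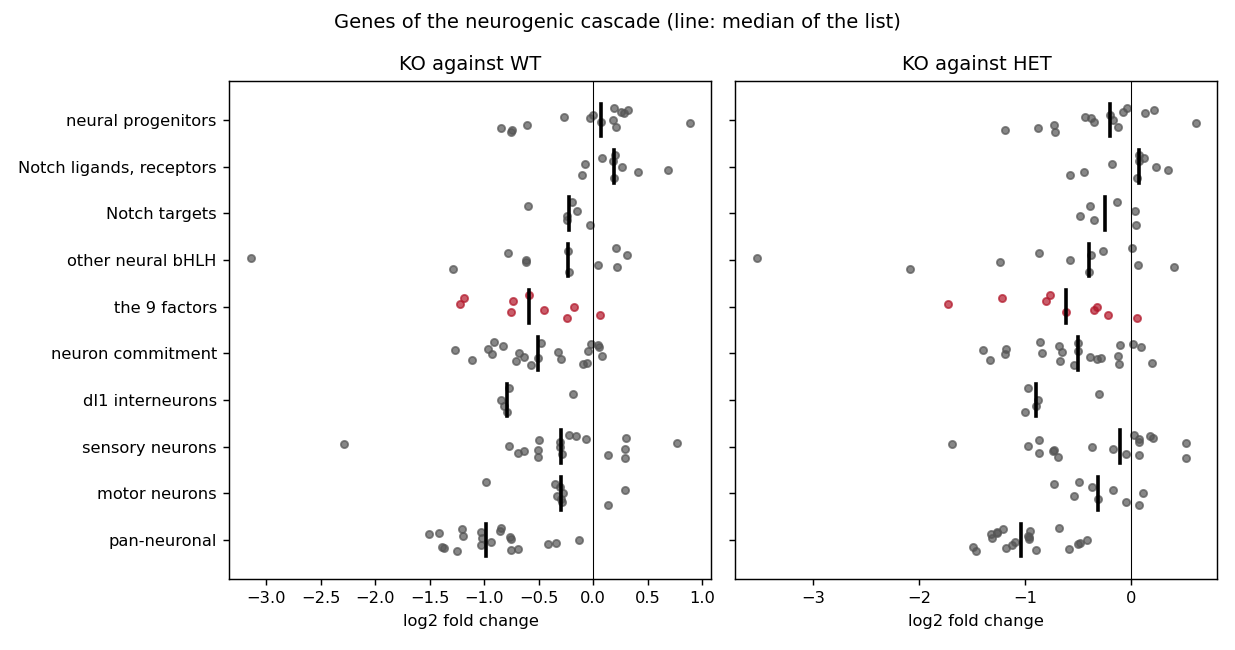
Log2 fold change (x axis) in KO against WT and in KO against HET of every tested gene (points) in lists that follow the order of neuron formation (rows), with the 9 factors in red and a line at each list's median. In KO against WT the median is 0.075 for neural progenitor genes, -0.58 for the 9 factors, -0.50 for neuron commitment genes and -0.98 for pan-neuronal genes. It is -0.29 for sensory neuron and for motor neuron genes, so the medians do not fall steadily along the rows.

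Scaling every library to the neural progenitor genes moved the median of all genes by 0.35 in KO against WT and by 0.45 in KO against HET. The scaling used the summed counts of the list, of which Nes was the largest part. Nes averaged 480 CPM in WT and 315 CPM in KO embryos, where the median sums of the list were 888 and 727 CPM. The median log2 fold change of the list was 0.075 in KO against WT, so the shift does not stand for the typical gene of the list. On the scaled values, Foxn4 was -0.93 and Nhlh2 -0.89 in KO against WT, with edgeR adjusted p = 0.297 and 0.342. Neurog2, Neurod4 and Neurog1 were positive there, at 0.41, 0.27 and 0.16, and relative to the shift of all genes they were 0.052, -0.087 and -0.19. Such a scaling moves all genes of a library alike. Values taken relative to the shift therefore return near those of the first scaling by construction and are no second test. Foxn4 was at -1.28 beside -1.23 in KO against WT and at -1.70 beside -1.73 in KO against HET.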

How the data were processed

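RNA of 12 whole embryos was measured by sequencing. Per the labels' protocols, libraries came from 325 ng of total RNA with a stranded mRNA kit. The authors deposited 1 table of estimated counts (expected counts per gene, not normalized), made with featureCounts 2.0.6 on the RefSeq annotation of GRCm39, per the file headers, with each mate counted, fractions for reads of several places or genes, and no use of strand. The submitters' processing notes also list DRAGEN and give it no role. After rounding of the estimated counts, filterByExpr kept 20771 genes. They were scaled by TMM and tested in R 4.3.3 with edgeR 4.0.16 (robust quasi-likelihood fit), with a mean per genotype over all 12 embryos and two-sided Benjamini-Hochberg adjusted p-values at 0.05. Intervals (95%) use the fit's SE and degrees of freedom. Single genes also had exact two-sided permutation tests on log2 CPM (prior count 2). The steps were tested on simulated data. DESeq2 1.42.0, limma 3.58.1 voom, other scalings and filters, covariates, the title number as a block and leaving out each embryo were the alternatives. The labels give no further design. The members and lists were chosen with earlier results of these data known. Named from each list were the 2 genes with the smallest p in KO against WT and the most abundant, as far as described, and some genes that the rule names are not reported here. Few reads limit the precision of Foxn4 and Neurog1.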

Additional observations from a re-analysis of the deposited data

Results flagged for a closer look

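Single embryos far from the other 3 of their genotype were looked for in 27 sets (9 members in 3 genotypes) with Dixon's test on log2 CPM, where chance alone flags about 1 in 20 sets. Neurog1 was at 0.855 CPM in KO 3, against 1.63 to 1.72 CPM in the other KO embryos. Neurog2 was at 2.47 CPM in the library labelled HET 2, against 8.96 to 10.4 CPM in the other HET embryos. Insm1 was at 1.78 CPM in KO 4, against 3.86 to 4.42 CPM in the other KO embryos. These 3 embryos also stood apart elsewhere, KO 3 by yolk sac genes, the library labelled HET 2 by its Mfsd12 level and KO 4 by the lowest stage index. The part of these in the values was not tested.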

How the results depend on the processing

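Of 891 values of a member under an alternative, 826 kept their sign and their side of the threshold, 63 took the opposite sign (29 of them with an embryo left out) and 2 newly passed. Both of these were Foxn4 with DESeq2, which gave 1 member past the threshold in KO against HET and 1 against the mean of HET and WT. Foxn4 kept its sign in all alternatives run. With DESeq2, genes past the threshold numbered 122 in KO against WT, 74 in KO against HET, 4 in HET against WT and 269 in KO against the mean of HET and WT, where edgeR called 0, 0, 0 and 1. In that last comparison limma voom called 4, and edgeR called 0 with no count filter, 0 with the stage index and 0 without the libraries labelled HET 2 and WT 1, which were left out together as an alternative chosen after seeing the data. Leaving out 1 embryo at a time gave 0 to 1 genes in KO against WT, 0 to 1 in KO against HET and 0 to 92 against the mean of both, 92 of them without KO 3.

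The title number as a replicate block called 2 genes in KO against WT and 3 against the mean of HET and WT. The labels do not say that the number marks a litter or batch, so the block rests on a number alone. Under the replicate block, log2 fold changes of opposite sign in KO against WT were Insm1 0.14, Neurod1 0.29, Neurod4 0.46 and Neurog1 0.024. In KO against HET they were Atoh1 0.17, Insm1 0.099, Neurod1 0.51, Neurod4 0.44 and Neurog2 0.21. Against the mean of both they were Atoh1 0.041, Insm1 0.12, Neurod1 0.40, Neurod4 0.45, Neurog1 0.31 and Neurog2 0.37. The medians of the members were 0.024, 0.17 and 0.12 in these comparisons. KO 4 was the only embryo of number 15 and HET 3 the only one of 4.1b. Each is taken up by its own block term and adds nothing to the genotype estimates of this fit. KO 4 was the lowest KO embryo for 7 members and HET 3 the highest HET embryo for 7. Number 14 holds only KO 1 and the library labelled HET 2, so within it KO 1 is set against that library alone. The library labelled HET 2 was the lowest HET embryo for 9 of 9 members and lay below KO 1 for all but Foxn4. The block fit therefore does not compare the same embryos as the main fit, and the part of this in the values was not tested.

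Scaled to neural progenitor genes, which moved the median of all genes by 0.35 in KO against WT, 0.45 in KO against HET, 0.40 against the mean of both and -0.12 in HET against WT, the values of opposite sign were as follows. In KO against WT they were Neurod4 0.27 and Neurog1 0.16, and in KO against HET Neurod1 0.30, Neurod4 0.34 and Neurog2 0.34. Against the mean of both they were Neurod1 0.13, Neurod4 0.30, Neurog1 0.46 and Neurog2 0.37. In HET against WT they were Insm1 -0.061, Neurod4 -0.072, Nhlh1 -0.15 and Nhlh2 -0.19.

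Other reversals were few. With Xist as a covariate Neurod1 was 0.14 in HET against WT, where Foxn4 also moved to 1.22. Neurog1 in KO against HET was -0.11 with limma voom, -0.17 with the stage index and -0.32 without the libraries labelled HET 2 and WT 1. Neurog2 was 0.027 against the mean of both with the stage index and -0.088 in KO against WT without those libraries.

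With 1 embryo left out at a time, members that took the opposite sign at least once had these ranges of log2 fold change. In KO against WT they were Neurod4 -0.45 to 0.32 and Neurog2 -0.076 to 0.18. In KO against HET they were Neurod1 -0.72 to 0.025, Neurod4 -0.66 to 0.021 and Neurog1 -0.31 to 0.43. Against the mean of both they were Neurog1 -0.28 to 0.11 and Neurog2 -0.23 to 0.043. In HET against WT they were Atoh1 -0.43 to 0.13, Insm1 -0.14 to 0.52, Neurod1 -0.48 to 0.33, Neurod4 -0.19 to 0.64, Neurog1 -0.67 to 0.069, Nhlh1 -0.17 to 0.37 and Nhlh2 -0.26 to 0.36.

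Foxn4 rested on at most 84 reads per embryo, and values of Neurog1 and Atoh1 in single embryos on fewer than 30, which limits what these libraries can resolve for them.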
